A study of Mus musculus with 8 samples.

Results

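The genes described here are 10 genes of intestinal tuft cells: Gnat3, Trpm5, Pou2f3, Avil, Dclk1, Il25, Rgs13, Plcb2, Alox5 and Ptgs1. They were chosen by name, and all 10 were found among the 23951 gene symbols of the expression table. Messenger RNA of mouse jejunal crypts had been sequenced in 8 libraries from 3 groups. All 3 groups carried BRAF-V600E f/+, a conditional activating allele of the kinase Braf, together with Villin-CreER(T2), a recombinase driven by the Villin promoter in the intestinal epithelium. Tamoxifen, which switches the recombinase on, was injected on 4 consecutive days, and crypts were taken 1 day later by detaching the epithelium in 3 mM EDTA and passing it through a 70 micron filter. The group BRAF (3 libraries) had no further floxed allele, SMAD4KO_BRAF (3 libraries) also carried Smad4 f/f, and CDX2KO_BRAF (2 libraries) also carried Cdx2 f/f. No group without the BRAF allele was analysed here, and the age of the mice is not given in the sources used here.

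Tuft cells are rare chemosensory cells of the epithelium. They detect luminal signals with the machinery of taste cells, in which receptors act through the G protein gustducin, phospholipase C and a calcium-gated cation channel. The factor POU2F3 is required for the lineage. In the small intestine tuft cells are known for releasing the cytokine IL-25 and lipid mediators, which alert type 2 immunity to parasites.

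Values are FPKM (fragments scaled by transcript length and by the number mapped) as deposited by the authors. Library totals of FPKM ran from 431269 to 595547, with 10924 to 11570 genes at an FPKM of 1 or more in a library. The files hold no counts. The ratios of the lowest values between libraries put their relative depth between 0.675 and 1.51, with BRAF library 0 set to 1, so the absolute depth is unknown and precision rests on the spread between libraries. Libraries carry the number of their table column. By their Y-linked genes, library 0 of BRAF and library 0 of SMAD4KO_BRAF came from males and 6 libraries from females. Smad4 was at 7.66 to 10.7 FPKM in SMAD4KO_BRAF and at 42.4 to 47.0 in BRAF. Cdx2 went against its label, with 155 and 121 FPKM in the libraries labelled CDX2KO_BRAF against 64.2 to 82.6 in BRAF and 75.1 to 93.1 in SMAD4KO_BRAF. Since one value covers the whole gene, it cannot show the loss of a floxed part, and every direction given below for these 2 libraries rests on their label. Genes of Paneth cells and of enterocytes were both present in these crypt libraries, at levels that differed between the groups. The Paneth cell gene Lyz1 was at 2072 to 2786 FPKM in BRAF, 3564 to 5340 in SMAD4KO_BRAF and 259 to 891 in CDX2KO_BRAF. Mmp7, also a Paneth cell gene, was not lower in CDX2KO_BRAF, with 130 to 243, 223 to 549 and 216 to 448 in the same order. The enterocyte gene Fabp1 was at 3485 to 7202, 2803 to 8947 and 516 to 1219 in the same order.

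Library 1 labelled CDX2KO_BRAF held the highest level of every one of the 10 genes. Summed over the 10, FPKM was 55.7 and 122.8 in libraries 0 and 1 of that group, 7.53 to 8.08 in BRAF and 5.43 to 15.6 in SMAD4KO_BRAF. Against BRAF, 8 of the 9 tested members rose: Gnat3, Plcb2 and Trpm5 of the taste-type cascade, the lineage factor gene Pou2f3, the structural and kinase genes Avil and Dclk1, the signal regulator gene Rgs13 and the leukotriene gene Alox5. None fell. Of all 12084 genes tested, 6.89% rose and 7.21% fell in that comparison. Against SMAD4KO_BRAF 7 of 9 rose and none fell, where 6.6% of all genes rose and 5.01% fell. The labelled libraries lay above every BRAF library for 9 of the 10 members and above every SMAD4KO_BRAF library for 10, beside 25.7% and 25.1% of all tested genes. Alox5 did not pass against SMAD4KO_BRAF, Ptgs1 passed in neither comparison and Il25 was too low to be tested. Between SMAD4KO_BRAF and BRAF none of the 9 tested members passed. In bulk RNA a change in the number of tuft cells and a change in RNA per cell cannot be told apart.

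**Figure D1:**
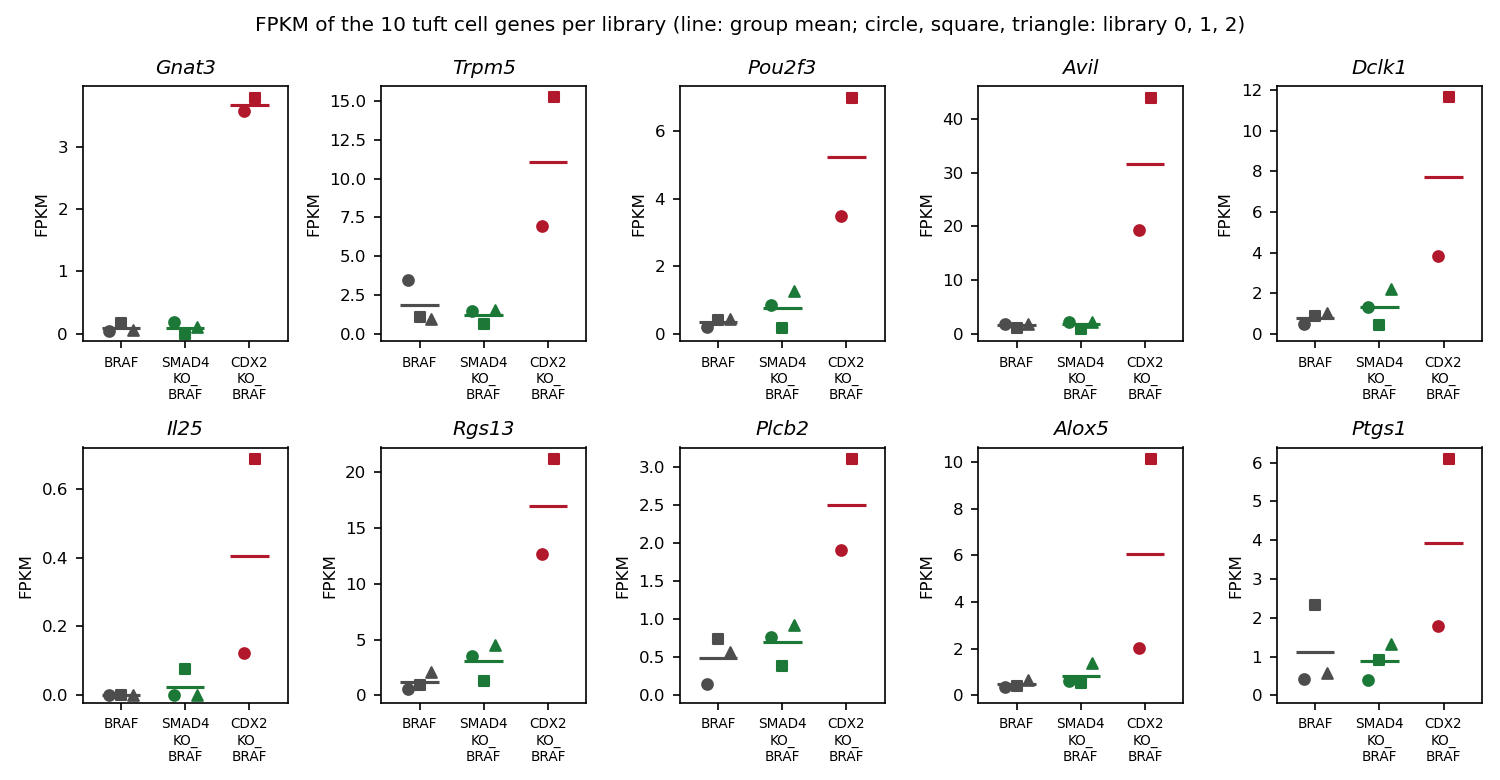
FPKM (vertical axes, each gene with its own scale) of the 10 tuft cell genes in the 8 libraries, grouped along the horizontal axes, with 1 point per library and lines for group means. Library 1 of CDX2KO_BRAF is the highest for every gene, for example 44.0 for Avil, and library 0 of that group is the next highest for every gene except Ptgs1.

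Each change below is a difference in log2(FPKM + 1) from limma, given with its standard error, with p-values adjusted over all 12084 genes of a comparison by the Benjamini-Hochberg method and a threshold of 0.05. This scale understates the change of genes at low FPKM. Genes were tested when at least 2 of the 8 libraries reached an FPKM of 1. Gnat3 and Plcb2 reached it in the libraries labelled CDX2KO_BRAF and in no other, and Pou2f3 and Alox5 in those and in 1 library of SMAD4KO_BRAF. These 4 of the 9 were tested only because they were high in the labelled libraries, so the counts over the tested members are a description only. Without that filter all 10 members entered the test, and 6 rose against BRAF, where 3.73% of 18704 genes did, and 5 against SMAD4KO_BRAF, where 3.72% did. Both comparisons share the same 2 labelled libraries. The labels do not describe the libraries as separate animals, and the p-values measure only the spread between these libraries.

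Gnat3 encodes alpha-gustducin, the G protein subunit that couples taste-type receptors to the cascade. Taken in the order of library number, here and for the genes that follow, its FPKM was 0.0485, 0.176 and 0.0658 in BRAF, 0.197, 0 and 0.103 in SMAD4KO_BRAF, and 3.57 and 3.79 in the libraries labelled CDX2KO_BRAF. The labelled libraries lay above the other 6, which did not reach an FPKM of 0.2, and they differed from each other less than for any other member (a ratio of 1.06). The mean rose 38.0-fold against BRAF, or by log2 2.09 ± 0.18 (limma, adjusted p = 0.000887), and by 2.09 ± 0.18 against SMAD4KO_BRAF (0.00103).

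Plcb2 encodes phospholipase C beta 2, the enzyme that gustducin signalling activates to release inositol trisphosphate. Its FPKM was 0.151, 0.740 and 0.563 in BRAF, 0.765, 0.389 and 0.926 in SMAD4KO_BRAF, and 1.90 and 3.10 in the labelled libraries. The labelled libraries stood above all others, while BRAF and SMAD4KO_BRAF overlapped. The rise was 1.24 ± 0.27 against BRAF (limma, adjusted p = 0.0246) and 1.04 ± 0.27 against SMAD4KO_BRAF (0.0488).

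Trpm5 encodes the cation channel that opens on the calcium released at the end of the cascade. Its FPKM was 3.45, 1.11 and 0.957 in BRAF, 1.47, 0.643 and 1.56 in SMAD4KO_BRAF, and 6.95 and 15.2 in the labelled libraries. BRAF library 0 stood above the other BRAF and SMAD4KO_BRAF libraries but below both labelled ones. Trpm5 rose by 2.11 ± 0.45 against BRAF (limma, adjusted p = 0.0240) and by 2.38 ± 0.45 against SMAD4KO_BRAF (0.0177).

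Pou2f3, the lineage factor gene, had an FPKM of 0.194, 0.400 and 0.428 in BRAF, 0.863, 0.180 and 1.27 in SMAD4KO_BRAF, and 3.48 and 7.0 in the labelled libraries. SMAD4KO_BRAF libraries 0 and 2 lay above every BRAF library and SMAD4KO_BRAF library 1 below them, so those groups overlapped, and both labelled libraries lay above all 6. The rise was 15.4-fold in mean FPKM against BRAF, or log2 2.16 ± 0.34 (limma, adjusted p = 0.00814), and 6.80-fold against SMAD4KO_BRAF, or 1.81 ± 0.34 (0.0179).

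Avil encodes advillin, an actin-binding protein of the villin family found in the apical bundle of tuft cells. Its FPKM was 1.87, 1.03 and 1.73 in BRAF, 2.29, 0.983 and 2.28 in SMAD4KO_BRAF, and 19.3 and 44.0 in the labelled libraries. It was the most abundant of the 10 in the labelled libraries, with 31.6 ± 17.4 (SD, n = 2), and it had the largest log2 change among the tested members. The mean rose 20.5-fold against BRAF, or by 3.59 ± 0.38 (limma, adjusted p = 0.00186), and 17.1-fold against SMAD4KO_BRAF, or by 3.44 ± 0.38 (0.00264).

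Dclk1, which encodes a microtubule-associated kinase widely used as a tuft cell marker, had an FPKM of 0.466, 0.897 and 1.02 in BRAF, 1.32, 0.417 and 2.22 in SMAD4KO_BRAF, and 3.84 and 11.6 in the labelled libraries. SMAD4KO_BRAF library 2 was the nearest of the other libraries to labelled library 0. Dclk1 rose by 2.14 ± 0.47 against BRAF (limma, adjusted p = 0.0265) and by 1.83 ± 0.47 against SMAD4KO_BRAF (0.0488).

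Rgs13 encodes a regulator of G protein signalling that speeds the switching-off of G protein alpha subunits. Its FPKM was 0.541, 0.924 and 2.06 in BRAF, 3.51, 1.31 and 4.52 in SMAD4KO_BRAF, and 12.7 and 21.2 in the labelled libraries. It was the second most abundant member in both labelled libraries. The rise was 3.06 ± 0.44 against BRAF (limma, adjusted p = 0.00576) and 2.18 ± 0.44 against SMAD4KO_BRAF (0.0231).

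Alox5 encodes 5-lipoxygenase, the first enzyme of leukotriene synthesis. Its FPKM was 0.375, 0.400 and 0.675 in BRAF, 0.604, 0.506 and 1.37 in SMAD4KO_BRAF, and 2.02 and 10.1 in the labelled libraries. The labelled libraries differed from each other 5.03-fold. Alox5 rose by 1.97 ± 0.51 against BRAF (limma, adjusted p = 0.0435), while the difference from SMAD4KO_BRAF of 1.70 ± 0.51 missed the threshold (0.0740).

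Ptgs1 encodes cyclooxygenase 1, which makes the precursor of prostaglandins. Its FPKM was 0.427, 2.34 and 0.584 in BRAF, 0.391, 0.923 and 1.33 in SMAD4KO_BRAF, and 1.77 and 6.11 in the labelled libraries. BRAF library 1 lay above labelled library 0, so these groups overlapped. BRAF library 1 also had the highest summed level of T cell and intraepithelial lymphocyte markers, at 1034 FPKM against 16.3 to 485 in the other 7 libraries, and the part of such cells in the Ptgs1 level was not tested. The differences of 1.18 ± 0.51 from BRAF (limma, adjusted p = 0.180) and 1.27 ± 0.51 from SMAD4KO_BRAF (0.152) did not pass.

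Il25, the gene of the cytokine by which tuft cells signal to innate lymphoid cells, was listed at 0 in all 3 BRAF libraries and in SMAD4KO_BRAF libraries 0 and 2. It was at 0.0753 in SMAD4KO_BRAF library 1 and at 0.124 and 0.686 in the labelled libraries. No library reached an FPKM of 1. Without the filter its log2 differences were 0.46 ± 0.15 from BRAF (limma, adjusted p = 0.134) and 0.43 ± 0.15 from SMAD4KO_BRAF (0.158), neither of which passed.

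**Figure D2:**
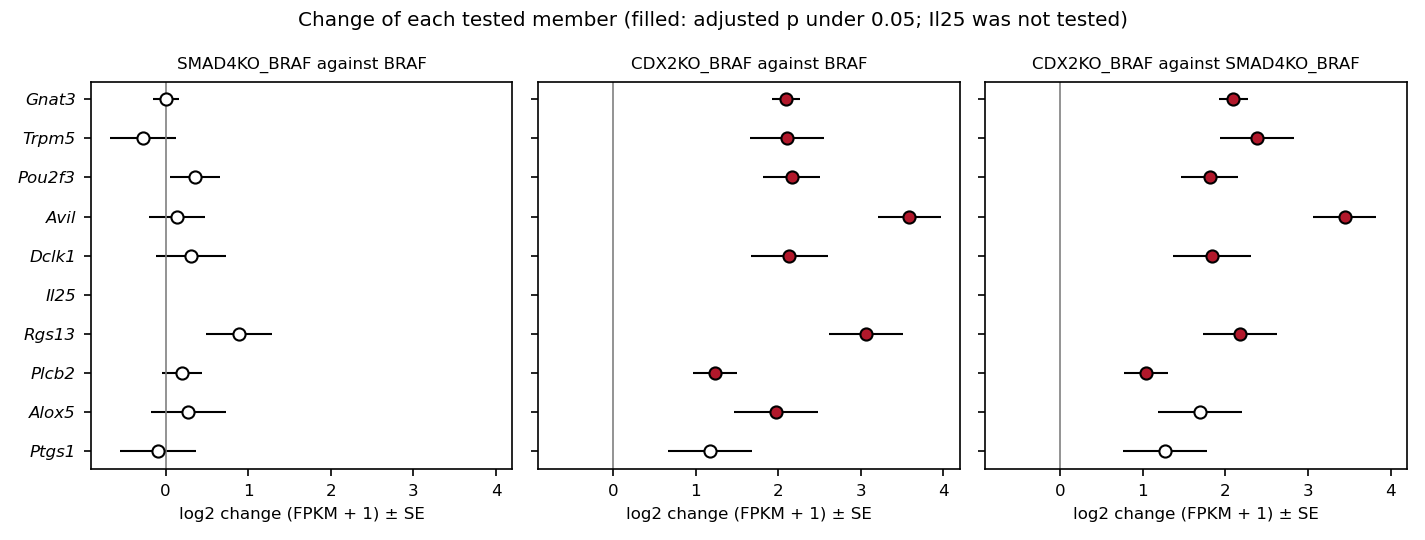
Log2 change of FPKM + 1 (horizontal axes) of the 9 tested genes in each of the 3 comparisons, with bars for the standard error and filled points where the adjusted p is under 0.05. Avil has the largest changes, 3.59 and 3.44, and no point is filled for SMAD4KO_BRAF against BRAF.

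The labelled libraries differed from each other in all 10 genes. Library 1 exceeded library 0 for 10 of 10 genes, by a ratio of 1.06 for Gnat3, 1.63 for Plcb2, 1.67 for Rgs13, 2.01 for Pou2f3, 2.19 for Trpm5, 2.28 for Avil, 3.03 for Dclk1, 3.44 for Ptgs1, 5.03 for Alox5 and 5.52 for Il25. The ratio was thus smallest for Gnat3, Plcb2 and Rgs13 and largest for Il25, Alox5 and Ptgs1. That of Il25 rests on 0.124 and 0.686 FPKM. Within BRAF the highest library exceeded the lowest by a ratio of 1.80 for Alox5 to 5.48 for Ptgs1, Il25 being listed at 0. Library 1 also had higher summed FPKM of T cell markers (71.4 against 16.3), mast cell markers (40.4 against 19.5) and gastric markers (8731 against 2681), and the part of such cells in these ratios was not tested.

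The calls depended on which libraries were used, and most on library 1 of CDX2KO_BRAF. Without it 1 of 7 tested members, Avil, rose against BRAF, where 1.4% of all genes did, and Avil alone rose against SMAD4KO_BRAF, where 1.04% did. Without library 0 of CDX2KO_BRAF, 6 of 7 rose against BRAF and 5 against SMAD4KO_BRAF, beside 2.21% and 1.91% of all genes. Gnat3 and Plcb2 could not be tested in these fits. In each of these fits the group has a single library, which is assumed to vary like the others. Against BRAF, 5 members rose without BRAF library 0 or library 1 (5.33% and 4.9% of all genes), 4 without BRAF library 2 (3.85%), and 5 in the female libraries alone (5.65%). The female libraries alone gave 3 against SMAD4KO_BRAF (5.78%).

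Gene by gene, the calls against BRAF of Avil and Gnat3 held in every alternative setting in which they could be tested (18 and 15 settings), and Gnat3 was not tested without either labelled library or at a minimum FPKM of 5. Those of Rgs13 and Pou2f3 ended in 1 setting each, without CDX2KO_BRAF library 1, with adjusted p of 0.0626 and 0.0769 (ranges over the settings 0.00424 to 0.0626 and 0.00458 to 0.0769). Trpm5 passed in 14 of 18 settings (range 0.00755 to 0.160), Plcb2 in 11 of 15 (0.0109 to 0.0707), Dclk1 in 11 of 17 (0.0184 to 0.157) and Alox5 in 5 of 17 (0.0103 to 0.159). Ptgs1 passed in none of its 17 settings (0.0560 to 0.617). Single libraries ended several of these calls. That of Trpm5 was lost without BRAF library 1, BRAF library 2 or CDX2KO_BRAF library 1, that of Plcb2 without BRAF library 0 or 2, that of Dclk1 without any 1 of the BRAF libraries or CDX2KO_BRAF library 1, and that of Alox5 without any 1 library other than CDX2KO_BRAF library 0.

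Against SMAD4KO_BRAF the calls of Avil (adjusted p 0.00172 to 0.0233) and Gnat3 (0.000374 to 0.0124) again held in all 18 and 15 settings. Trpm5 passed in 16 of 18 (0.0109 to 0.126), Pou2f3 in 15 of 17 (0.0120 to 0.133) and Rgs13 in 15 of 18 (0.0245 to 0.154), each of them failing without CDX2KO_BRAF library 1 and Rgs13 also without library 0. The calls of Dclk1 and Plcb2 were close to the threshold, passing in 3 of 17 (0.0375 to 0.236) and 4 of 15 (0.0193 to 0.116). Dclk1 failed without any 1 library other than CDX2KO_BRAF library 0, and Plcb2 failed without BRAF library 2 or any 1 of the SMAD4KO_BRAF libraries. Alox5 passed in 2 of 17 settings (0.0155 to 0.266), 1 of them without CDX2KO_BRAF library 0.

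**Figure D3:**
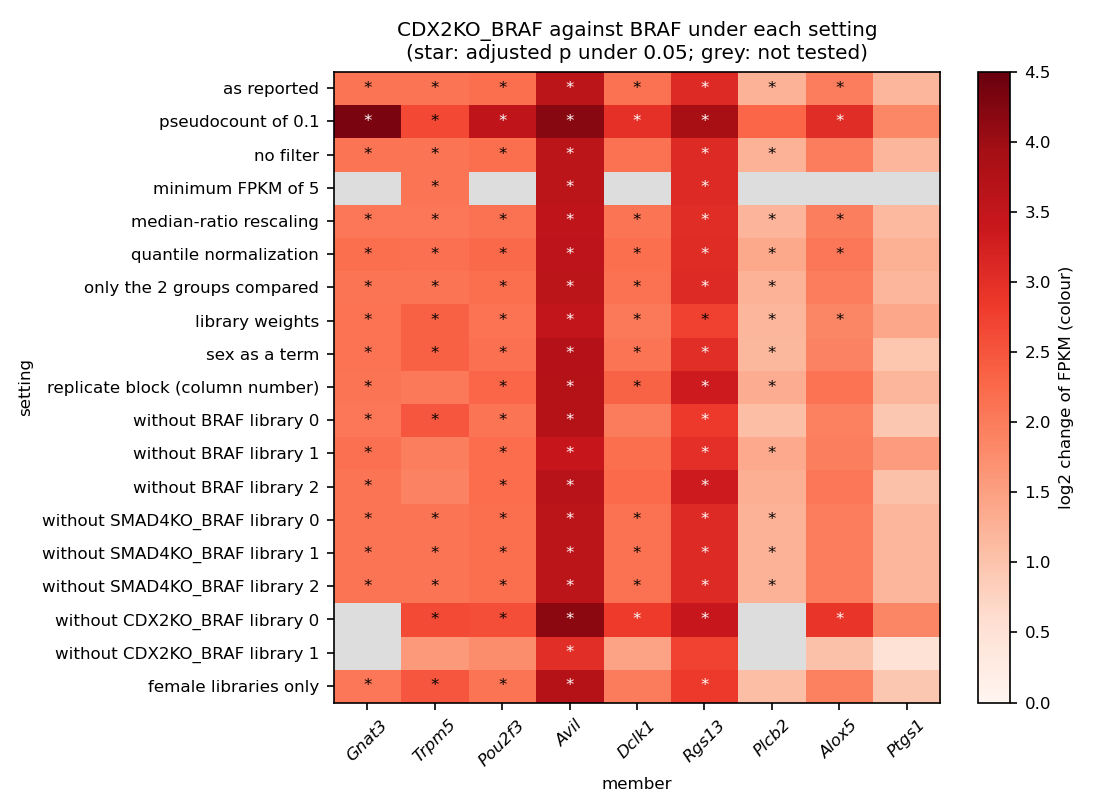
Log2 change against BRAF in the libraries labelled CDX2KO_BRAF, as colour, for the 9 tested genes (columns) under each setting (lines), with a star where the adjusted p is under 0.05 and grey where a gene was not tested. Avil has a star on every line, and the line without CDX2KO_BRAF library 1 has a star for Avil alone.

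SMAD4KO_BRAF was set against BRAF to ask what deletion of Smad4, which carries BMP and TGF-beta signals to the nucleus, adds in crypts with the activated kinase. None of the 9 tested members passed in limma, beside 0.0248% of all genes that rose and 0.0497% that fell. None of the 9 had an unadjusted p under 0.05, beside 6.07% of all genes higher and 9.05% lower at that level. The median difference of the members was 0.20, beside -0.013 for all genes. All 10 members overlapped between these groups, whereas 8.99% of all tested genes lay higher and 10.4% lower without overlap. Rgs13 had the largest difference, 0.89 ± 0.40 (limma, adjusted p = 0.348). That of Pou2f3 was 0.35 ± 0.31 (0.586) and that of Dclk1 was 0.30 ± 0.42 (0.745). Within SMAD4KO_BRAF, library 2 was the highest of its group for 7 of the 10 genes, and library 1 was the lowest of all 8 libraries for 5. Library 2 also had the highest T cell marker sum of its group (485 FPKM, with 53.3 and 163 in libraries 0 and 1), and the part of such cells in these values was not tested. The standard errors of the members in this comparison ran from 0.16 for Gnat3 to 0.46 for Ptgs1. Differences of that size could not be called with these libraries, nor was the larger one of Rgs13.

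The promoters of the members were read because so many of the genes were higher together. RefSeq promoter entries of build GRCm38.p6, a build other than the mm9 of the expression table, covered 8 of the 10 members with 9 promoters, Dclk1 having 2. The 250 bases before each start were searched on both strands for the octamer ATGCAAAT, which POU factors bind, for its core ATGCAAA, which lies within the octamer, and for TTTATNG, a form of the CDX motif. These motifs were chosen with the results known. The octamer was in none of the 9 promoters, and in 1.6% of all 32851 promoters. The core was in 1 of the 9, that of Avil, with 2 matches, and in 4.12% of all promoters. The CDX form was in 1 of the 9, that of Alox5, and in 9.81% of all promoters. A match is a description of letters in this window and shows no binding. The promoters of Avil and Gnat3 are shown because their calls held in each of the 18 and 15 settings that tested them, and that of Alox5 because it holds the CDX match. Capitals mark the matches, which lie 115 to 109 and 15 to 9 bases before the start of Avil and 220 to 214 bases before that of Alox5, and Gnat3 has none.
Avil (GRCm38.p6, chr10:127000459-127000708, + strand): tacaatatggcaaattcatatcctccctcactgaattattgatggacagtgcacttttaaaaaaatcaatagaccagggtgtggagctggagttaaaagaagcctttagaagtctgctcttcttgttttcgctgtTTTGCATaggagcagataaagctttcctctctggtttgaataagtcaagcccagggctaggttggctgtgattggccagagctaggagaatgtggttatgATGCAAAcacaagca
Gnat3 (GRCm38.p6, chr5:17962320-17962569, + strand): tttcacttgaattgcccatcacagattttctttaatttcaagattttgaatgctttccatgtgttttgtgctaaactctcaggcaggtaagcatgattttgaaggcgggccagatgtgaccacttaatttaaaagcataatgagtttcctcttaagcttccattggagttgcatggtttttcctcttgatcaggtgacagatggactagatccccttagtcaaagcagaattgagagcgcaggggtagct
Alox5 (GRCm38.p6, chr6:116461179-116461428, - strand): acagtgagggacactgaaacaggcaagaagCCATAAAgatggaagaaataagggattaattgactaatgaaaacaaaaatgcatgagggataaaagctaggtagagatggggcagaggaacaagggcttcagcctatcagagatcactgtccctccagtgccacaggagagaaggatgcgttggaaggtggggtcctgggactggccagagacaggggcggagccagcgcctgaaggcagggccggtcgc

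Other genes of the taste-type cascade were read from a list of 15, of which 9 were tested. Against BRAF 2 rose and none fell, beside 6.89% and 7.21% of all tested genes. Against SMAD4KO_BRAF 3 rose, beside 6.6%. Gng13, the G protein gamma subunit that partners gustducin, was at 0, 0.547 and 0.386 FPKM in BRAF, 0.819, 0 and 0.470 in SMAD4KO_BRAF, and 3.11 and 4.19 in the labelled libraries, and rose by 1.84 ± 0.31 against BRAF (limma, adjusted p = 0.0104). Gprc5c, an orphan receptor gene, rose by 1.56 ± 0.24 (0.00679). Itpr2, which encodes a receptor channel for inositol trisphosphate, rose against SMAD4KO_BRAF by 1.32 ± 0.29 (0.0296, and 0.0563 without the filter). Itpr3, the channel gene of the same family used in taste cells, was at 73.4 and 91.3 FPKM in the labelled libraries and 39.1 to 62.8 in BRAF, and missed the threshold in both comparisons (0.0741 and 0.0501). Tas1r3, which encodes a subunit of sweet and umami receptors, lay between 0.389 and 0.924 FPKM in the 8 libraries. The succinate receptor gene Sucnr1 was at 0.425 and 0.764 in the labelled libraries and at most 0.157 in the others. Ffar3, another receptor gene of the list, was at 0.431 and 2.56 in the labelled libraries and at most 0.547 in the others, and was not tested. Gnb3, the beta subunit gene of the same G protein, was at 0.0652 and 0.507 in the labelled libraries and listed at 0 in all 3 BRAF libraries. Gng13 and Gprc5c were under an FPKM of 1 in the other 6 libraries and were tested only through the labelled ones, so the count against BRAF is a description. Without the filter their adjusted p against BRAF were 0.0171 and 0.00915 in limma, and without either labelled library they could not be tested. With a pseudocount of 0.1 the count against BRAF was 1, beside 6.62% of all genes. Against SMAD4KO_BRAF it was 1 without CDX2KO_BRAF library 0, 0 without library 1 and 1 with the column number as a block.

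A list of 38 further genes of tuft cell lineage and structure had 36 in the table and 27 tested. Against BRAF 8 rose and 1 fell, beside 6.89% and 7.21% of all tested genes. The median change was 1.21, beside 0.023 for all genes. Against SMAD4KO_BRAF 6 rose, beside 6.6%. Sh2d7 had 0.807, 0.601 and 1.06 FPKM in BRAF against 4.71 and 16.0 in the labelled libraries, and rose by 2.44 (limma, adjusted p = 0.0181). The Ets factor gene Spib rose by 2.15 (0.0174), the surface glycoprotein gene Cd24a by 2.04 ± 0.20 (0.00146), Kctd12 by 1.96 (0.0132), the Tec-family kinase gene Bmx by 1.69 (0.0157), the tetraspanin gene Tspan6 by 1.56 (0.0399), Nrep by 1.23 (0.0259) and the adaptor gene Skap2 by 0.45 (0.0397). Bmx stayed at or below 0.428 FPKM outside the labelled libraries and was tested only through them, which did not hold for the other 7. Vil1, which encodes the villin of enterocyte microvilli, fell by 0.92 (0.0494), and no gene of the list fell without the filter or without any 1 library other than SMAD4KO_BRAF library 0. Gfi1b, a lineage factor gene of tuft cells, was at 0.530 and 1.0 FPKM in the labelled libraries and at most 0.252 elsewhere, too low to be tested. Without CDX2KO_BRAF library 1 the number that rose against BRAF was 1, it was 5 without BRAF library 0 or library 2, and in the female libraries alone it was 1. Without the filter it was 10 of 36, beside 3.73% of all genes, and at a minimum FPKM of 5 it was 4 of 15, beside 7.32%. Against SMAD4KO_BRAF it was 2, 1 and 3 without SMAD4KO_BRAF libraries 0, 1 and 2, 3 without BRAF library 2, 0 without CDX2KO_BRAF library 1 and 2 in the female libraries alone. It was 1 in a fit of the 2 compared groups alone, 1 with the column number as a block and 11 with library weights. Of all genes, 5.19%, 3.42% and 11.6% rose against SMAD4KO_BRAF in these settings, in that order. That share was 5.17%, 5.12% and 3.73% without SMAD4KO_BRAF libraries 0, 1 and 2. It was 4.84% without BRAF library 2 and 5.78% in the female libraries alone.

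Some genes of that list are also used by lymphocytes. Fyb, Vav1 and Lrmp were highest among the BRAF libraries in library 1, at 3.90, 2.23 and 5.03 FPKM, the library with the highest T cell markers. In the labelled libraries, whose T cell markers summed to 16.3 and 71.4, Fyb was at 2.91 and 9.10, Vav1 at 2.26 and 4.99 and Lrmp at 7.52 and 16.6. Vav1 and Lrmp there lay above every BRAF library, Fyb overlapped, and none of these 3 genes passed against BRAF (limma, adjusted p = 0.199, 0.144 and 0.0764). The part of lymphocytes in these values was not tested.

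Genes of eicosanoid synthesis beside Alox5 and Ptgs1 numbered 18, with 10 tested. Of all tested genes 6.89% rose and 7.21% fell against BRAF, and 6.6% rose against SMAD4KO_BRAF. Against BRAF 2 rose and none fell: Hpgd, whose enzyme breaks prostaglandins down, at 137 and 195 FPKM in the labelled libraries and 25.7 to 47.3 in BRAF (2.12 ± 0.28, limma, adjusted p = 0.00410), and Pla2g4a, whose enzyme frees arachidonic acid for both pathways, at 22.5 and 21.1 against 5.67 to 8.96 (1.46, 0.0121). Alox5ap, which encodes the partner protein of 5-lipoxygenase, had 0.217, 4.79 and 1.71 FPKM in BRAF against 4.25 and 19.0 in the labelled libraries, with overlap and no call (0.145). Ltc4s, the leukotriene C4 synthase gene, was at 4.40 and 8.21 in the labelled libraries and 2.34 to 3.17 in BRAF (0.180), and Hpgds, the prostaglandin D synthase gene, stayed at or below 1.60 in all libraries (0.356). Against SMAD4KO_BRAF 1 of the 10, Hpgd, rose. Without CDX2KO_BRAF library 0, and without library 1, the count against BRAF was 1. Against SMAD4KO_BRAF it was 2 when library 0 or library 1 of SMAD4KO_BRAF was left out, and 0 when library 1 of CDX2KO_BRAF was.

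**Figure D4:**
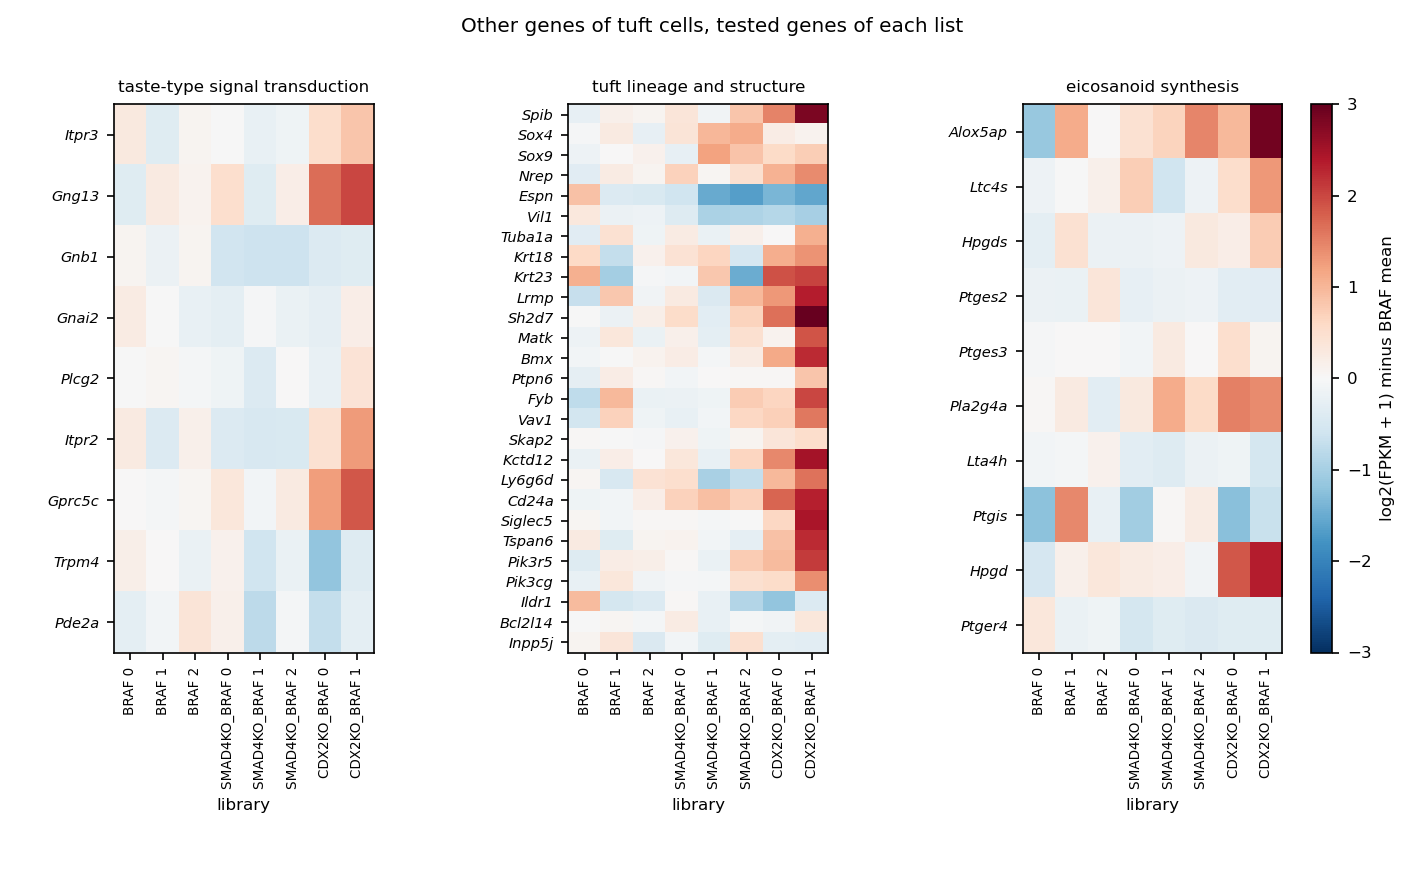
Colour gives the distance of log2(FPKM + 1) from the mean of BRAF, with the scale ending at 3, for the tested genes (lines) of 3 further tuft cell lists in each of the 8 libraries (columns). The deepest red lies in CDX2KO_BRAF library 1, for example Sh2d7 at 16.0 FPKM, while Espn and Vil1 of the second list are blue in both labelled libraries and in all 3 SMAD4KO_BRAF libraries.

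Genes of the type 2 circuit around IL-25 were read next. Of 11 genes 6 were tested, and none passed in any comparison or had an unadjusted p under 0.05 in limma. Of all tested genes 6.89% rose and 7.21% fell against BRAF, and 6.6% rose and 5.01% fell against SMAD4KO_BRAF. With 6 genes tested, a count of 0 lies near these shares. Il13, Il4 and Il5, cytokine genes of the innate lymphoid and T helper cells that answer IL-25, were at or near 0 throughout. The libraries come from detached epithelium, so the tissue beneath it was not measured. Il4 was listed at 0 in all 8 libraries, and Il13 and Il5, listed at 0 in both labelled libraries, reached at most 0.0579 and 0.187 FPKM elsewhere. Il17rb, the IL-25 receptor gene, was at 0.961 and 2.09 FPKM in the labelled libraries and 0.733 to 0.979 in BRAF (adjusted p = 0.413). Among 12 other RGS genes, 7 of them tested, 1 rose and none fell against BRAF, beside 6.89% and 7.21% of all tested genes. Rgs19 was the one that rose, at 7.05 and 7.30 FPKM in the labelled libraries and 1.24 to 2.95 in BRAF (1.55, limma, adjusted p = 0.0137). No RGS gene passed against BRAF without either labelled library.

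Several members are also made by blood cells, so markers of other cells were read beside them. Of all tested genes 6.89% rose and 7.21% fell against BRAF. In the labelled libraries the summed markers of T cells were 16.3 and 71.4 FPKM, against 35.9 to 1034 in BRAF, and none of the 10 passed. Myeloid markers summed to 24.4 and 30.5, against 16.7 to 80.8, with Cd14 rising among 5 tested (limma, adjusted p = 0.0213) and the macrophage gene Emr1 at 0 and 0.0866. Most of the labelled sums was Cd14, at 19.6 to 20.8 FPKM, and the median change of the 5 was -0.54. Itgam was lower in the labelled libraries, at 0.443 to 0.489 against 1.96 to 6.75 in BRAF, without a call (limma, adjusted p = 0.0566). No myeloid marker rose without BRAF library 0 or 2 or without either labelled library. B cell markers summed to 1.26 and 2.97, against 2.72 to 14.2. Mast cell markers summed to 19.5 and 40.4, against 12.3 to 21.3. Of these the protease gene Mcpt4 rose among 4 tested (1.74, 0.00270). The protease gene Mcpt2 was at 14.0 and 29.9 FPKM, against 2.65 to 17.6 in BRAF, without a call (limma, adjusted p = 0.155). The defining gene Cpa3 was at 0 and 0.116 and Fcer1a was listed at 0 in both. These 2 genes were low in the other libraries too, at no more than 0.451 and 0.406. Of 5 platelet markers 2 were tested, of which Pf4 rose (1.47, 0.0384) and Gp1bb fell (-4.67, 0.000340). Mcpt4 and Pf4 were tested only through the labelled libraries, and without the filter their adjusted p were 0.00295 and 0.0606. The call of Pf4 was also lost without either labelled library, BRAF library 0 or 2, or SMAD4KO_BRAF library 2, and Mcpt4 could not be tested without either labelled library. Neuron and glia markers, read because Dclk1 and Avil are also neuronal genes, summed to 1.42 and 1.75 against 1.11 to 2.05, and none of the 12 was tested. The part of mast cells and platelets in the changes of the members was not tested.

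**Figure D5:**
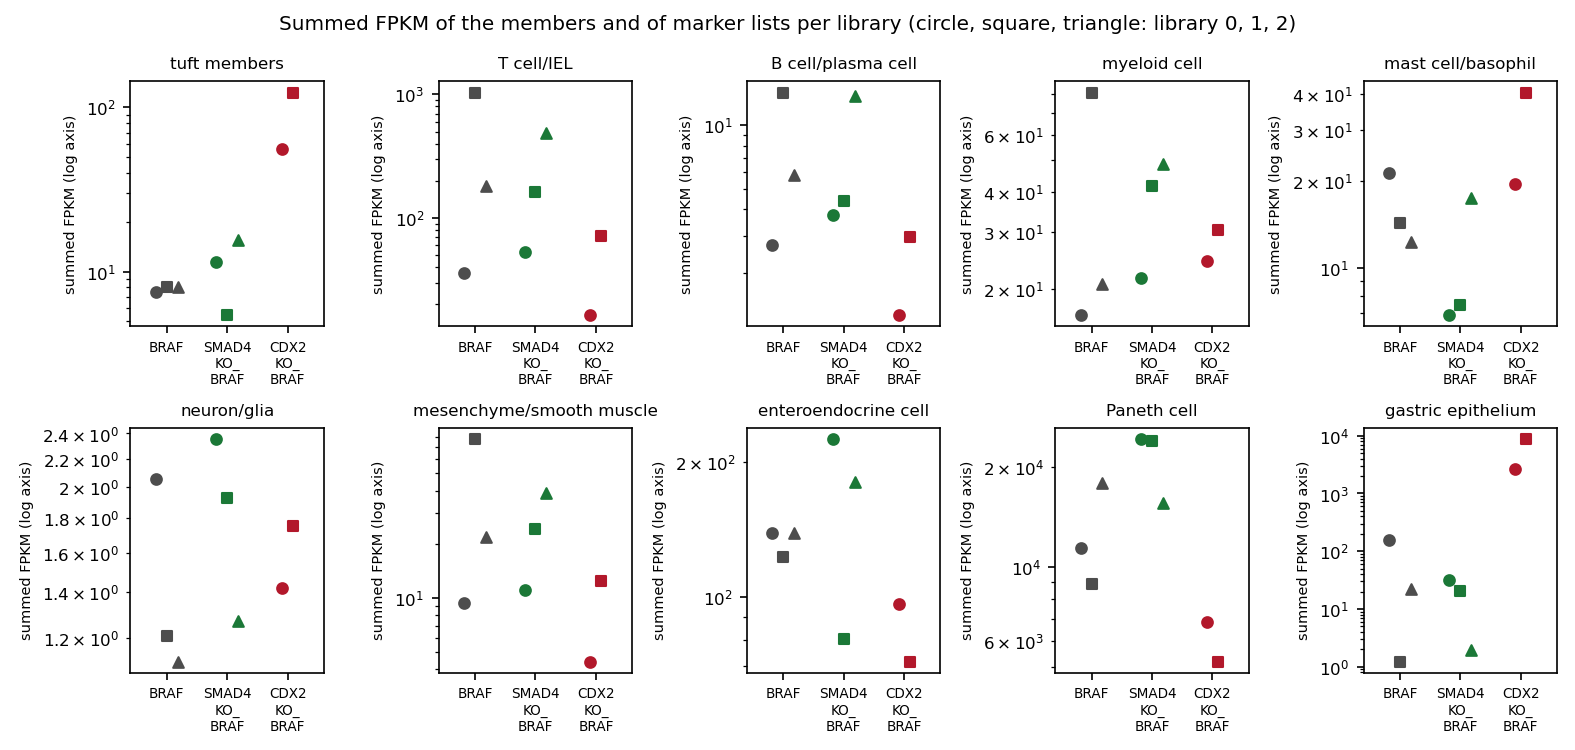
Summed FPKM (vertical log axes) of the 10 tuft cell genes and of 9 marker lists in the 8 libraries, with 1 point per library and colour by group. The tuft cell sum is 55.7 and 122.8 in the libraries labelled CDX2KO_BRAF and at most 15.6 elsewhere, whereas the T cell sum there, 16.3 and 71.4, lies inside or below the BRAF range of 35.9 to 1034.

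Genes of other epithelial cells were read in the same comparison, in which 6.89% of all tested genes rose and 7.21% fell. Of 10 tested enteroendocrine genes none rose and 2 fell against BRAF: Neurog3, the endocrine lineage factor gene, from 1.95 to 2.36 FPKM in BRAF to 0.381 and 0.0372 (-1.40, limma, adjusted p = 0.0134), and Chgb (-1.52, 0.0361). That count was 1 without any 1 of the BRAF libraries or CDX2KO_BRAF library 0, and 0 without CDX2KO_BRAF library 1. Leaving out SMAD4KO_BRAF library 0 gave 3 and leaving out library 1 of that group gave 5. Of 7 tested Paneth cell genes 3 fell, Lyz1, Itln1 and Defa3 (0.0281, 0.0422 and 0.0145), and the count was 1 without BRAF library 0 or 2, 0 without CDX2KO_BRAF library 1 and 0 with the column number as a block. Of 10 goblet cell genes 1 rose, Clca1 (0.0224), none without BRAF library 0 or CDX2KO_BRAF library 1 or with that block, and 2 and 3 without SMAD4KO_BRAF libraries 0 and 1. The goblet cell genes went both ways, with a median change of 0.035, beside 0.023 for all genes. Muc2 was at 121 to 151 FPKM in the labelled libraries against 207.7 to 248.5 in BRAF (limma, adjusted p = 0.0897). Tff3 was at 2544 to 2772 against 1060 to 1251 (0.0661). Of 7 tested genes of gastric epithelium 6 rose, 3 of them tested only through the labelled libraries, and the summed FPKM of all 11 on that list was 2681 and 8731 in the labelled libraries and 1.22 to 158 in BRAF. Of 10 enterocyte genes 6 fell, and 2 without CDX2KO_BRAF library 1. Of 6 tested stem cell genes 1 rose, Tnfrsf19 (0.0315), which was tested only through the labelled libraries, and none rose without any 1 of the BRAF libraries, SMAD4KO_BRAF library 2 or either labelled library. Of 6 tested genes of mesenchyme none passed. Whether the tuft cell genes differed from these lists in their change was not tested.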

How the data were processed

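The authors deposited 1 table of FPKM values, with a column for each library and a line for each gene symbol. TopHat2 2.1.0, Cuffnorm 2.2.1, Cuffdiff 2.2.1 and the build mm9 are named, without their roles, per the submitters' processing notes; reads were 50 bp, single end. Column numbers start at 0 and title numbers at 1, so columns were matched to groups and not to single samples, and 3 columns fitting no sample were left out. With limma 3.58.1 in R 4.3.3, log2(FPKM + 1) of the 8 libraries was modelled by group with a mean-variance trend, for genes reaching an FPKM of 1 in 2 or more libraries, with two-sided tests. The model was tested on simulated data. The members, the 19 other gene lists, the tests and the settings were chosen with earlier results of these data known. Genes are named if they are members or targeted genes, if they passed within a list, if they are among the 4 of a list with the smallest adjusted p, or if they are defining markers at 0. Gnb3, Tas1r3, Sucnr1, Ffar3, Gfi1b, Fyb, Vav1, Lrmp, Hpgds, Espn, Emr1, Cpa3 and Mmp7 were chosen after their values were seen. A pair of genes of these lists is not reported here and was left out of the lists' counts and sums. Other settings changed the pseudocount to 0.1, dropped the filter or raised it to 5, rescaled libraries by median ratios or quantiles, fitted the compared groups alone, weighted libraries, added sex or the column number as a term, or left out each library in turn. A fit of the female libraries was added after seeing the data. Plots were drawn with matplotlib 3.10.9.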

Additional observations from a re-analysis of the deposited data

How the results depend on the processing

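Of the 18 other settings, 12 left the count of members that rose against BRAF within 1.5 times of 8, and 14 that against SMAD4KO_BRAF within 1.5 times of 7. A minimum FPKM of 5 left 3 members to test, Avil, Rgs13 and Trpm5, and all 3 rose in both comparisons. Of all genes, 7.32% rose against BRAF and 7.23% against SMAD4KO_BRAF in that setting. The 3 members reached an FPKM of 5 in the labelled libraries alone, so their count is a description only. The female libraries alone gave 5 and 3, and leaving out single libraries gave 1 to 7 and 1 to 6. No member fell in any setting, and none passed between SMAD4KO_BRAF and BRAF. Same-numbered columns of BRAF and SMAD4KO_BRAF correlated in their deviations at 0.241, -0.0474 and 0.0035, so the numbers were not taken as pairs. With the replicate block 6 members rose against BRAF and 4 against SMAD4KO_BRAF, and over all genes 481 rose against BRAF while 413 rose and 392 fell against SMAD4KO_BRAF. Over all genes the counts as reported were 833 higher and 871 lower against BRAF, 797 and 605 against SMAD4KO_BRAF, and 3 and 6 between SMAD4KO_BRAF and BRAF. Library weights gave 1321 higher against BRAF, 1400 higher and 1047 lower against SMAD4KO_BRAF, and 414 and 655 between SMAD4KO_BRAF and BRAF. In that last comparison sex as a term gave 11 and 67, the female libraries 8 higher and no filter 3 lower. Leaving out single libraries gave 167 to 897 higher and 242 to 936 lower against BRAF, 124 to 813 higher and 110 to 610 lower against SMAD4KO_BRAF, 2 to 7 higher and 2 to 18 lower between SMAD4KO_BRAF and BRAF. Between SMAD4KO_BRAF and BRAF some small differences changed sign, none passing: Gnat3 was -0.058 with a pseudocount of 0.1 and -0.092 in the female libraries, Trpm5 0.028 with library weights and 0.014 in the female libraries, Plcb2 -0.012 in the female libraries and Ptgs1 0.30 with library weights. Without single libraries Gnat3 ran from -0.061 to 0.069, Trpm5 ran from -0.49 to 0.10, Avil ran from -0.011 to 0.38 and Ptgs1 from -0.32 to 0.29. Cdx2 passed as higher in the labelled libraries against both other groups. That call was lost in 5 of 18 settings against BRAF and in 10 of 18 against SMAD4KO_BRAF. Against BRAF it was lost without BRAF library 0 or 2 and in the female libraries (limma, adjusted p = 0.05, 0.0505 and 0.0572), and without either labelled library. The cause of these changes was not tested. The depth is unknown, and members below an FPKM of 1 rest on few reads.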
